A study of Mus musculus with 6 samples.

Results

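The genes described here encode the laminins, the nidogens and the basement membrane heparan sulfate proteoglycans of mouse RPE/choroid, the retinal pigment epithelium together with the vascular layer behind it. The members were listed by name for what their proteins do, with earlier results of these data already known. They are the laminin chains Lama2, Lama4, Lama5, Lamb1, Lamb2 and Lamc1, the nidogens Nid1 and Nid2, and the proteoglycans Hspg2 (perlecan) and Agrn (agrin). All 10 were among the 33924 gene symbols of the deposited table, and all 10 were among the 18636 genes with an adjusted p-value.

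Basement membranes are thin sheets of matrix on which epithelia rest and which wrap blood vessels, muscle fibres and Schwann cells. Laminins are trimers of an alpha, a beta and a gamma chain that join into a network on the cell surface; nidogens bind the laminin gamma 1 chain and link it to type IV collagen, and perlecan and agrin add heparan sulfate chains that hold growth factors and water. In the eye the basement membranes of the RPE and of the choriocapillaris form the outer faces of Bruch's membrane, the layer that nutrients cross on their way to the photoreceptors.

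The comparison was of total RNA from RPE/choroid of 3 young and 3 aged C57BL/6J mice, an inbred wild-type strain, and the labels name no treatment. The labels gave 1 to 2 months for the young mice, and 20 to 24 months in the titles but 22 to 24 months in the time field for the aged mice. The labels called all mice male, whereas the methods named both sexes and another age range for the young group, so age and sex are given here only as labelled. By the methods each sample was made from 2 eyes, after the front of the eye and the neural retina had been taken away and the pigmented layer scraped from the sclera. The tissue is therefore a mixture of RPE, vessels, stroma and pigment cells, and markers of muscle, rods, nerve and lens were detected beside those of the RPE. Markers of the RPE were abundant, with Rpe65, the visual cycle isomerase, at a mean of 43745 normalized counts.

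The table held 1 row per gene: the mean normalized count over all 6 libraries (baseMean), a log2 fold change, its standard error (SE) and the p-values of the authors' DESeq2 test. It held no value for a single mouse, so levels per mouse, the overlap of the groups and the depth of each library are not given. The deposited fold changes ran as young over aged, inferred from the numbers of genes called in each direction beside the split stated for the study; they were turned round here so that a negative value means a lower level in aged mice, and each direction in the text rests on that reading. Group levels called implied below were worked out from baseMean and fold change. An adjusted p under 0.05 in the deposited DESeq2 test is called a pass.

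Windows of 300 bases around annotated RefSeq starts (GRCm38.p6) were used for 7 of the 10 members, in 8 entries since Agrn has 2. No window of Lama4, Lamc1 or Nid2 was used here. The windows of Nid1 and Lamb1, the members with the largest falls, and of Lamb2, the only member with a positive fold change, are printed 5′ to 3′ on the strand of the gene, from 250 bases before the start. Capitals mark matches to the GC box GGGCGG, to the CCAAT box, spelled as its name, and to the TATA box TATAAA, each searched for on both strands.
Nid1 (chr13:13437352-13437651, plus strand): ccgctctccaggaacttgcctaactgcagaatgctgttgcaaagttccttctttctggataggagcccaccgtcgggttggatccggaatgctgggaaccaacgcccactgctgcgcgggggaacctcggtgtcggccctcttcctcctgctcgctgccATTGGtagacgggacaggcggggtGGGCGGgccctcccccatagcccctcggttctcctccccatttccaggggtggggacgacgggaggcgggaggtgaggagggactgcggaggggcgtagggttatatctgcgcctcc
Lamb1 (chr12:31265043-31265342, plus strand): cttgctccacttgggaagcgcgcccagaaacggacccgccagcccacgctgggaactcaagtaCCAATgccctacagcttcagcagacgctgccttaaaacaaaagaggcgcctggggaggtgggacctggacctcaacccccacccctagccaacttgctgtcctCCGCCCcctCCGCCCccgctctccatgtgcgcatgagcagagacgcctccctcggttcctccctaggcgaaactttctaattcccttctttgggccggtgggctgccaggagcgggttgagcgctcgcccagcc
Lamb2 (chr9:108479612-108479911, plus strand): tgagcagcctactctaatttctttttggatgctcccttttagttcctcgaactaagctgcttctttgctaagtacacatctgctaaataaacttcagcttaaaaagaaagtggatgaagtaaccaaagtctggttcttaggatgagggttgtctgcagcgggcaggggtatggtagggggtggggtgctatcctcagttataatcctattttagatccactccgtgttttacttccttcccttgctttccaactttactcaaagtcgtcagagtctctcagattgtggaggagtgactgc

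The Nid1 window held 1 GC box and 1 CCAAT box, and 64.7% of its bases were G or C. The Lamb1 window held 2 GC boxes and 1 CCAAT box at 63.7% G or C. The Lamb2 window held no match to any of these boxes and was 44% G or C with 4 CpG pairs, against 20 CpG pairs in the Nid1 window and 18 in the Lamb1 window. It was placed by a RefSeq start that lies 126 bases downstream of the start of the gene in GENCODE, so it takes in that start as well. Of the other windows, the upstream one of Agrn held 12 GC boxes at 83.3% G or C, the other one of Agrn, 11229 bases downstream of the GENCODE start, held 2 at 61.3%, Hspg2 held 5, Lama5 held 4 and Lama2 held 1. The Lama2 window was placed by a start 2816 bases downstream of that in GENCODE and does not take it in. None of the 8 windows had a TATA box or an E-box (CACGTG). Among all 32851 RefSeq windows of this length, 35.7% held a GC box, 37.4% a CCAAT box, 13.6% a TATA box and 7.15% an E-box, and the median was 52.7% G or C with 7 CpG pairs. These are matches of letters in a window and say nothing of what binds there.

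Of the 10 members, 7 fell with age and none rose past the threshold in the deposited DESeq2 test, although at an unadjusted p under 0.05 there was 1 higher, Lamb2. The falls were largest for the nidogen Nid1 and the laminin beta chain Lamb1, intermediate for Nid2, Lamc1 and Agrn, and smallest for the alpha chains Lama4 and Lama2, while Hspg2, Lama5 and Lamb2 did not pass. Among all tested genes 21.2% passed, 9.92% as lower and 11.3% as higher in aged mice. Among the 4547 tested genes with a baseMean of at least 1000, the range in which all members lie, 6.99% passed as lower. The median log2 fold change of the members was -0.44, beside -0.01 over all tested genes and 0.13 over the abundant ones, of which 32.1% had a negative value. The members lay between the 84.0th and 99.1st percentile of baseMean and together made up 0.221% of the summed baseMean of all genes. The RNA came from whole tissue, in which fewer cells of a type and less RNA per cell cannot be told apart.

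**Figure D1:**
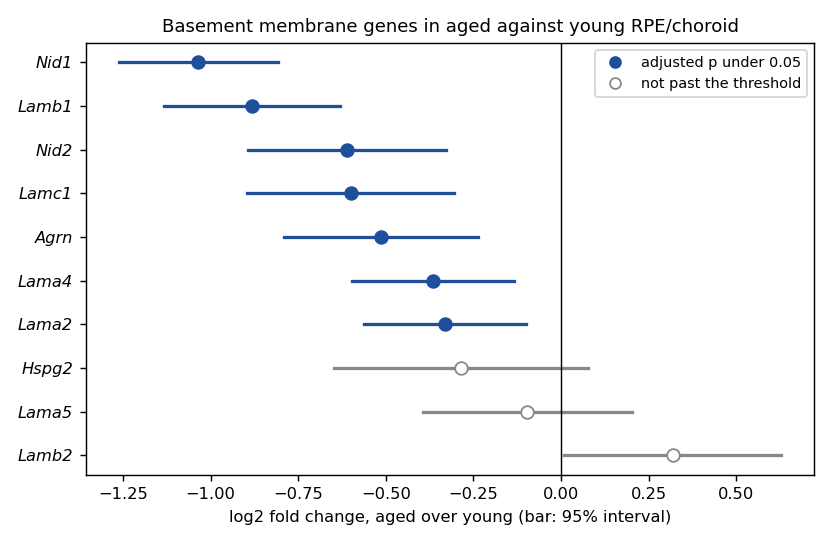
Log2 fold change of each of the 10 members, aged over young (x axis), with bars for the 95% interval from the deposited standard error. Filled points are the 7 genes with an adjusted p under 0.05, all left of 0 and led by Nid1 at -1.03; open points are Hspg2, Lama5 and Lamb2, of which only Lamb2 lies right of 0.

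Nidogen-1, which ties laminin to type IV collagen, changed most. Its gene spans chr13:13437551-13512269 on the plus strand in 20 exons (GRCm38, GENCODE). Nid1 had a baseMean of 4067 normalized counts and implied levels of 5465 in young and 2668 in aged mice. Its log2 fold change was -1.03 (SE 0.12, 95% interval -1.26 to -0.81, adjusted p = 4.15e-17 in the authors' DESeq2 test), a change of -51.2% with an interval from -58.3% to -42.8%. It ranked at place 225 by p-value among all tested genes. Nid1 was the only member to change by 1 or more on the log2 scale, and 44.4% of the 1849 genes that fell had a more negative value than it.

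Nidogen-2, its paralog with a like domain order, lies at chr14:19751265-19811787 on the plus strand. The implied level of Nid2 went from 1851 to 1213 normalized counts, or -0.61 on the log2 scale (SE 0.14, adjusted p = 0.000308 by DESeq2). Its end overlaps the protein-coding gene Rtraf on the opposite strand (2700060E02Rik in the table), which stood at 0.27 on the log2 scale (SE 0.13, adjusted p = 0.147). Of the 31-base words of the Nid2 transcripts 92.1% occurred in no other gene, the lowest share among the members, and the setting for strand in the authors' counting was not given in the sources used here. Per kilobase of transcript (kb), Nid1 exceeded Nid2 by 2.36 times in young and 1.76 times in aged mice. The log2 fold changes of the nidogens differed by 0.42 with overlapping 95% intervals, and that difference was not tested. Summed, the implied nidogen level went from 7316 to 3880 normalized counts, a change of -47.0%, the largest of the 3 families of members.

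The beta chains had fold changes of opposite sign, of which only the negative one passed. Lamb1 encodes the beta 1 chain, found in most basement membranes, and Lamb2 the beta 2 chain, known from the neuromuscular junction, the glomerulus, vessels and the retina. Lamb1 (chr12:31265234-31329644, plus strand, 33 exons) fell from an implied 3691 to 2004 normalized counts, a log2 fold change of -0.88 (SE 0.13, 95% interval -1.13 to -0.63, adjusted p = 2.85e-10 by DESeq2). Lamb2 (chr9:108479736-108490530, plus strand, 33 exons) had implied levels of 7233 and 9023, or 0.32 on the log2 scale (SE 0.16, 95% interval 0.01 to 0.63). It had an unadjusted p of 0.0435 and an adjusted p of 0.140 in the deposited DESeq2 table, and so did not pass. Both genes have the same number of exons, but Lamb1 spans 64411 bases and Lamb2 only 10795.

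The log2 fold changes of the beta chains lay 1.20 apart, and theirs were the only 95% intervals that did not overlap in the 5 pairs of related members set side by side. The difference itself could not be tested without values per mouse. Per kb, Lamb1 stood at 0.497 of Lamb2 in young mice and at 0.216 in aged mice. The sum of the implied levels of both beta genes was nearly level at 10924 and 11027 normalized counts, a change of 0.951%. With the minor chain Lamb3 counted in, Lamb2 made up 66.4% of the beta chain transcripts per kb in young mice and 81.9% in aged mice, and Lamb1 33.0% and 17.7%.

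**Figure D2:**
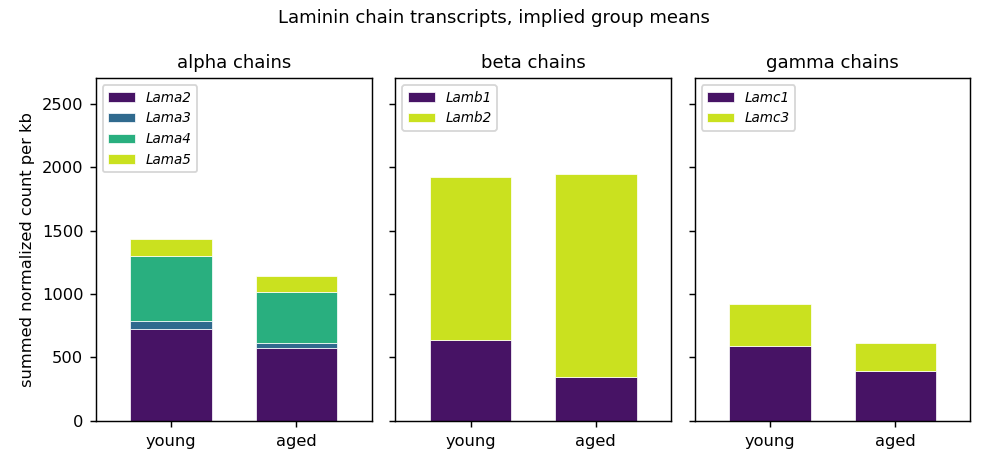
Implied group means of the laminin chain transcripts per kb (y axis, normalized counts per kb, stacked) in young and aged mice, for alpha, beta and gamma genes that made up at least 2% of their family in either group; no error can be drawn for the stacks. The beta stack is nearly level, with the Lamb1 part at 638 in young and 346 in aged mice and the Lamb2 part, whose difference did not pass the test, at 1285 and 1603, while the alpha and gamma stacks are lower in aged mice. The gamma stack includes Lamc3, which had no p-value.

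Lamc1, the gamma 1 chain that most laminin trimers contain and that nidogens bind, fell to a degree near that of Nid2. It lies at chr1:153218922-153332786 on the minus strand in 28 exons. Its implied level went from 4510 to 2974 normalized counts, a log2 fold change of -0.60 (SE 0.15, 95% interval -0.90 to -0.30, adjusted p = 0.000842 by DESeq2). A pseudogene on the opposite strand, Gm8818, had a baseMean of only 24.4. Lamc3, which encodes the gamma 3 chain and is no member, had a fold change of -0.60 (log2, SE 0.22) at a baseMean of 1626 but no p-value in the table. Per kb Lamc1 stood at 592 in young and 390 in aged mice, and Lamc3 at 334 and 220.

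The alpha chains, which carry the parts of laminin that cell surface receptors bind, changed least among the members that passed. Lama2, the alpha 2 chain of muscle and Schwann cell basement membranes, spans 639723 bases at chr10:26980036-27619758 on the minus strand, the longest locus of the members, in 65 exons. Its implied level went from 6948 to 5523 normalized counts, or -0.33 on the log2 scale (SE 0.12, adjusted p = 0.0274 by DESeq2). Lama4, the alpha 4 chain typical of vessel walls, lies at chr10:38965515-39110188 on the plus strand. It went from an implied 3112 to 2416, or -0.37 on the log2 scale (SE 0.12, adjusted p = 0.0139 by DESeq2). The values of Lama2 and Lama4 differed by 0.03 on the log2 scale, and both had smaller standard errors than most genes of like abundance.

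Lama5, the alpha 5 chain of epithelial and vessel basement membranes at chr2:180176373-180225859 on the minus strand, had implied levels of 1551 and 1450 normalized counts. Its log2 fold change was -0.10 (SE 0.15, 95% interval -0.39 to 0.20, adjusted p = 0.711 by DESeq2), or a change of between -23.9% and 15.0%. Per kb it was the lowest of the members, at 136 in young and 127 in aged mice. Of all alpha chain transcripts per kb, Lama2 made up 49.7% in young and 49.9% in aged mice, Lama4 35.4% and 34.7%, and Lama5 9.36% and 11.1%. These shares of the implied means differed little between the groups, while the summed level of the 3 alpha members changed by -19.1%.

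The proteoglycans had negative fold changes of unlike certainty. Agrin, known for clustering acetylcholine receptors at the neuromuscular junction, is also found in basement membranes of vessels and of the retina. Agrn (chr4:156165290-156197488, minus strand, 36 exons) went from an implied 2658 to 1862 normalized counts, a log2 fold change of -0.51 (SE 0.14, 95% interval -0.79 to -0.24, adjusted p = 0.00278 by DESeq2). Perlecan is the large proteoglycan of nearly all basement membranes. Hspg2 (chr4:137468769-137570630, plus strand, 97 exons) had the highest baseMean of the members at 9376 and implied levels of 10302 and 8450. Its log2 fold change was -0.29 (SE 0.19, 95% interval -0.65 to 0.08, adjusted p = 0.282 by DESeq2), or a change of between -36.2% and 5.51%.

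The standard error of Hspg2 lay at the 86.5th percentile of the 259 tested genes within 1.5 times its baseMean, whose median was 0.14. Among those genes the smallest change to pass was 0.29 on the log2 scale in either direction, about the size estimated for Hspg2. The fold changes of Agrn and Hspg2 differed by 0.23 on the log2 scale with overlapping intervals. Agrn stood at 0.531 of Hspg2 per kb in young and 0.453 in aged mice.

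**Figure D3:**
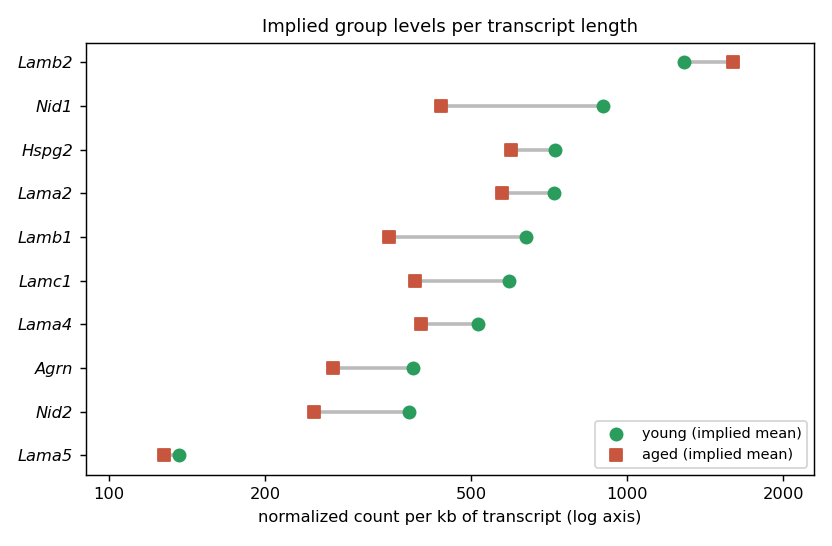
Implied group means of the 10 members in normalized counts per kb of transcript (x axis, log scale), young as circles and aged as squares, in order of mean level. Nid1 and Lamb1 show the longest steps to the left, from 897 to 438 and from 638 to 346, and Lamb2, at 1285 and 1603 the highest, is the only gene with a step to the right.

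Per kb the order of the levels in young mice was Lamb2 at 1285, Nid1 at 897, Hspg2 at 727, Lama2 at 723, Lamb1 at 638, Lamc1 at 592, Lama4 at 515, Agrn at 386, Nid2 at 380 and Lama5 at 136 normalized counts. In aged mice Lamb2 stayed highest at 1603 and Lama5 lowest at 127, while Nid1 stood at 438, behind Hspg2 at 596 and Lama2 at 574. Lamb1, at 346, then stood behind Lama4 at 400 and Lamc1 at 390. The spread behind a single group level is not in the table, so neighbours in this order could not be compared. Summed over all members, the implied level was 47320 normalized counts in young and 37583 in aged mice, a change of -20.6%. That sum is weighted by the most abundant genes, Hspg2 and Lamb2 among them, which did not pass. The summed laminins changed by -13.5% and the proteoglycans by -20.4%.

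Abundant genes as a whole leaned upward in aged mice. Centred on the median of tested genes with a baseMean of at least 1000, a shift of 0.13 on the log2 scale that was chosen after the data were seen, the same 7 members passed and none changed sign. The values relative to that shift were -1.16 for Nid1, -1.01 for Lamb1, -0.74 for Nid2, -0.73 for Lamc1, -0.64 for Agrn, -0.49 for Lama4 and -0.46 for Lama2. Hspg2 stood at -0.41 (adjusted p = 0.0928 from the recomputed DESeq2 Wald ratio), Lama5 at -0.22 and Lamb2 at 0.19. Over all tested genes the split of calls moved from 2100 higher and 1849 lower as deposited to 1390 higher and 2907 lower under that centring, and 15.6% of tested genes were then called lower.

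**Figure D4:**
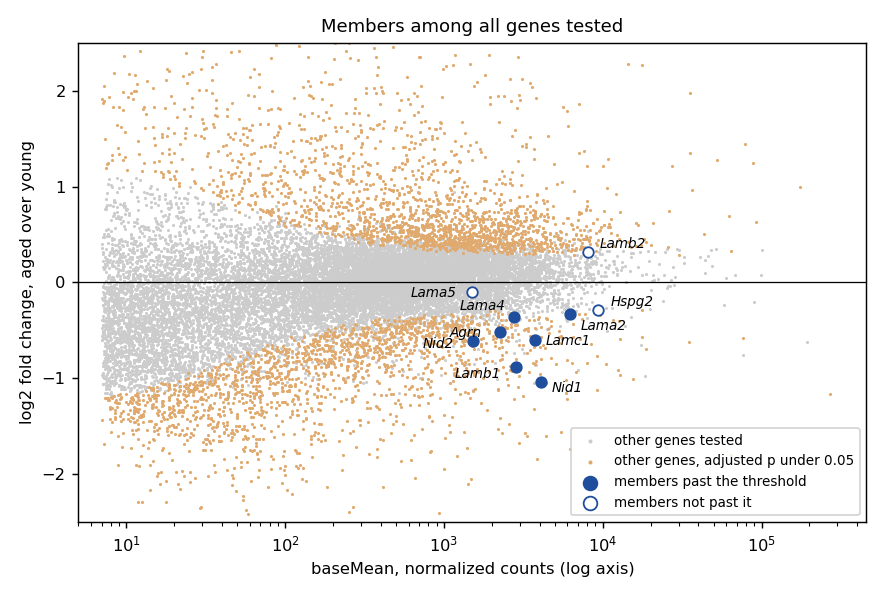
Log2 fold change, aged over young (y axis), against baseMean (x axis, log scale) for all 18636 tested genes, with the 10 members marked; 114 genes beyond 2.5 in either direction are not drawn. The members lie at the abundant end, and 7 of them lie among the genes called lower.

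Of the other laminin chains, the 4 with an adjusted p were measured at lower levels than the members. Of these, 2 fell and none rose, with a median log2 fold change of -0.65. Lama1, an alpha chain of early embryonic basement membranes, fell by 0.91 on the log2 scale (SE 0.21, adjusted p = 0.000248 by DESeq2) at a baseMean of 135. Lama3, an alpha chain of epithelial anchoring sites, had -0.60 (SE 0.23, adjusted p = 0.0410 by DESeq2) at a baseMean of 543. Lamb3, at a baseMean of 49.5, had -0.71 (adjusted p = 0.197) and did not pass. All 4 values were negative, as was that of Lamc3, which has no p-value. None of the 4 tested netrins, which share the laminin short-arm fold, passed in the DESeq2 test as deposited, with 1 higher and 1 lower at an unadjusted p under 0.05, and 1 was called lower under both centrings. Ntn4, the most abundant of these, stood at 0.32 (adjusted p = 0.128). Ntn1, at a higher baseMean of 2980, had a log2 fold change of 0.54 (SE 0.15) but no p-value in the table.

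The calls among receptors for these proteins turned with centring. Of all tested genes 9.92% were called lower as deposited and 15.6% under centring on genes with a baseMean of at least 1000. As deposited, of 7 laminin-binding receptor genes only Itgb4, the integrin beta 4 subunit of hemidesmosomes, rose, at 0.45 (SE 0.16, adjusted p = 0.0246 by DESeq2), and none fell, while under centring on genes with a baseMean of at least 1000 none rose and 3 fell. Itgb1, the beta subunit shared by most laminin-binding integrins, was the most abundant of them at 0.07 (adjusted p = 0.765). In the dystrophin-glycoprotein complex, which joins laminin and agrin through dystroglycan to the cytoskeleton, 2 of 13 tested genes fell as deposited and 5 under that centring. Those that fell as deposited were Sgca, a muscle sarcoglycan, at -0.95 (adjusted p = 0.00507) and Dmd, dystrophin, at -0.46 (adjusted p = 0.0414). Utrn, the dystrophin paralog, was the most abundant at 0.09. Of the 17 tested genes that build the sugar chain by which dystroglycan binds laminin, 1 fell and 1 rose as deposited, the rise being lost under both centrings. None of the 4 agrin receptor and clustering genes passed, with 1 higher at an unadjusted p under 0.05, and Lrp4, the agrin receptor, stood at 0.21 (adjusted p = 0.237).

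Enzymes acting on heparan sulfate were listed by role. Of 24 tested genes for chain synthesis, 4 fell (16.7%, beside 9.92% of all tested genes) and 1 rose (4.17%, beside 11.3%), with a median log2 fold change of -0.07. The sulfotransferase genes Hs3st1 at -1.17 (adjusted p = 0.000162), Ndst3 at -1.02 (adjusted p = 0.000238) and Hs6st2 at -0.53 (adjusted p = 0.00878) were among those that fell, at baseMeans of 85.8, 147 and 316. Extl3, a chain-initiating transferase, rose at 0.53 (adjusted p = 0.0432), a call lost under both centrings. Fam20b, the most abundant, stood at 0.29 (adjusted p = 0.115).

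Of 11 tested genes for remodelling and breakdown, 7 rose (63.6%, beside 11.3% of all tested genes) and none fell, with a median of 0.54, and 6 were higher and 1 lower under the centring on the most abundant genes. Gusb, a lysosomal glucuronidase, rose at 1.26 (adjusted p = 4.41e-14), Hpse, heparanase, at 0.98 (adjusted p = 8.75e-11), and the lysosomal enzymes Sgsh at 0.78 (adjusted p = 0.000271) and Naglu at 0.76 (adjusted p = 7.18e-06) with them. Sulf1, a sulfatase acting outside the cell and the most abundant of the list, stood at -0.07 (adjusted p = 0.784). Macrophage markers moved the same way as these genes: 7 of 9 tested rose as deposited, 6 under both centrings, and none fell, with a median of 1.92, and their summed implied level went from 12276 to 31176 normalized counts. Their part in the result was not tested.

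Among cell-surface heparan sulfate proteoglycans the calls went both ways. Of 9 tested, 2 were higher (22.2%, beside 11.3% of all tested genes) and 3 lower (33.3%, beside 9.92%). Under both centrings 2 were higher and 4 lower. The glypican Gpc1 rose at 0.76 (adjusted p = 9.35e-05) and the syndecan Sdc3 at 0.69 (adjusted p = 0.00123), while the glypicans Gpc2 at -0.81 (adjusted p = 0.0264) and Gpc6 at -0.47 (adjusted p = 0.00419) fell. Sdc4, the most abundant, stood at 0.34 (adjusted p = 0.0910). These values stand beside those of Agrn, which fell, and Hspg2, which did not pass.

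Falls were also seen in other parts of the basement membrane. Of the 6 type IV collagen genes, the partners to which nidogens link laminin, 4 fell and none rose, with a median of -0.86. Col4a5 stood at -1.58 (adjusted p = 0.000329), Col4a6 at -1.26 (adjusted p = 0.0107), Col4a3 at -0.91 (adjusted p = 5.84e-07) and Col4a4 at -0.82 (adjusted p = 2.65e-06). Col4a1, the most abundant, and Col4a2, the chains of nearly all basement membranes, had -0.21 and -0.26 and did not pass. Of 21 other basement membrane proteins 10 fell and 3 rose. Fras1 at -1.81, Frem2 at -2.41 and Frem3 at -2.21, members of a complex that anchors epithelia to the matrix below, had adjusted p-values between 2e-64 and 6.08e-11, and Sparc, a collagen-binding protein, fell at -1.72 (adjusted p = 3.57e-30). Timp3, an inhibitor of metalloproteinases stored in Bruch's membrane, was by far the most abundant at a baseMean of 41188 and stood at 0.26 (adjusted p = 0.147). Over the 11 lists, 26 of 120 tested genes fell and 15 rose as deposited, with a median of -0.08, and 38 fell and 10 rose under centring on genes with a baseMean of at least 1000. Over all tested genes 9.92% fell and 11.3% rose as deposited. Under that centring 15.6% of all tested genes fell, with 2907 called lower and 1390 higher.

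**Figure D5:**
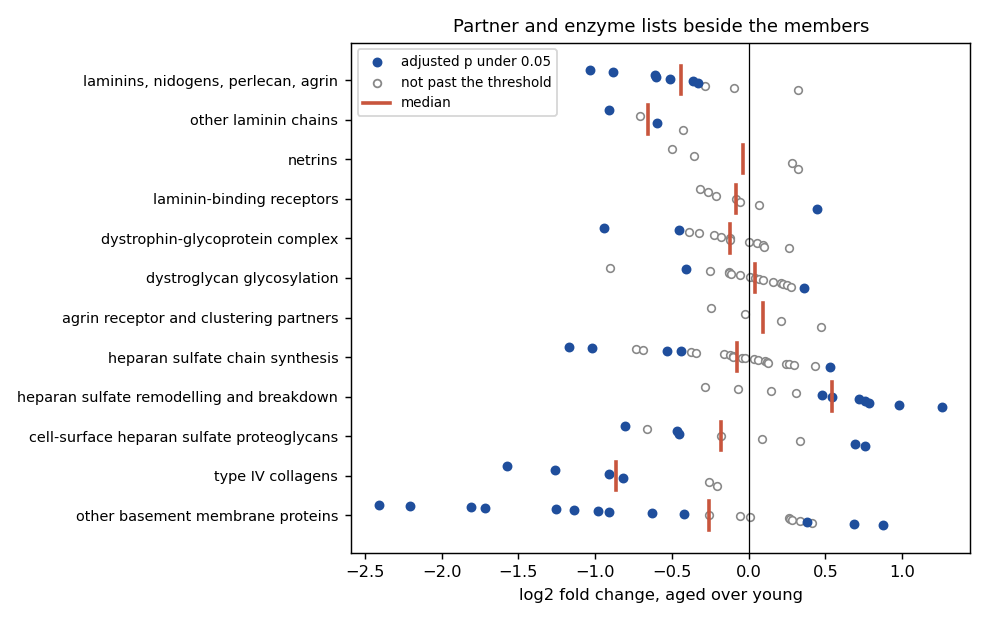
Log2 fold change, aged over young (x axis), of every tested gene of the members and of 11 lists of partners, receptors and enzymes, 1 point per gene and 1 row per list; filled points have an adjusted p under 0.05 and the red bar is the median of the row. The medians of the type IV collagens (-0.86), the other laminin chains (-0.65) and the members (-0.44) lie left of 0 and that of heparan sulfate remodelling and breakdown (0.54) right of it, with the receptor rows near 0.

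Markers of the cells that could make these proteins did not all move together. Of 10 fibroblast markers 6 fell and 1 rose, and their summed implied level went from 296289 to 124608 normalized counts, a change of -57.9%. That sum is weighted by the collagens Col1a2, Col1a1 and Col3a1, at baseMeans of 64562, 45848 and 35566, and by Dcn at 43430. The collagens Col1a1 at -2.91, Col1a2 at -1.80 and Col3a1 at -2.14 were the most abundant of those that fell. The others that fell were Dpt at -1.82, Pi16 at -1.13 and Fap at -0.46. Dcn rose at 0.51 (adjusted p = 0.00139 by DESeq2), and Lum, Pdgfra and Thy1 had positive values that did not pass. Of 11 pericyte and smooth muscle markers 4 fell and none rose, namely Acta2, Tagln, Myh11 and Cnn1, while the sum changed by -3.11%, with Rgs5 the most abundant. Of 11 tested endothelial markers 1 rose and 1 fell as deposited, and 1 rose and 2 fell under centring on genes with a baseMean of at least 1000, and their sum was higher by 4.74%. Of 9 tested skeletal muscle markers 3 fell and none rose, with a change of -13.1% in the sum. Myh4, the most abundant of these, stood at 0.35 and did not pass. Of 10 tested Schwann cell markers 2 rose and none fell, with the sum higher by 6.69% and Pmp22 the most abundant. Under centring on genes with a baseMean of at least 1000, 2 of them rose and 2 fell. That centring called 15.6% of all tested genes lower, beside 9.92% as deposited.

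Of 9 tested RPE markers 2 rose as deposited, 1 under both centrings, and none fell, with the sum higher by 22.6%. Ttr, the most abundant of these, stood at 0.08 and did not pass. Of 5 pigment cell markers 1 fell, with a change of -10.1% in the sum and Dct the most abundant. None of 10 rod markers passed, and none had an unadjusted p under 0.05. None of 4 tested lens markers passed, again with none at an unadjusted p under 0.05, and their sum changed by -13.4%. Most of the lens list could not be judged, since 8 of its 12 genes had a fold change but no p-value. The log2 fold changes of those 8 lay between -0.74 and -0.33. Of 7 tested adipocyte markers 1 rose, with the sum higher by 31.7%. No marker of any list was at 0. The sums cover the tested markers only and are implied group means, without a spread between mice. The part of any of these cell types in the lower levels of the members was not tested.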

How the data were processed

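RNA-seq of ribosomal RNA-depleted, stranded total RNA libraries was analysed. The study also made poly(A)-selected libraries of young and aged RPE/choroid, which were not used here. By the study's methods the authors trimmed read pairs with BBDuk, mapped them to Ensembl transcripts of GRCm38 with STAR, quantified them with Sailfish and tested young against aged mice with DESeq2; STAR, DESeq2 and GRCm38 are also named in the submitters' processing notes. The authors' table for total RNA held, per gene, baseMean (a signal: the mean normalized count over all libraries), a log2 fold change and its SE on the log2 scale, the Wald statistic (a score), and the p-value and adjusted p-value. These are columns of the authors' own comparison. They were used because no other measurement is at hand here, and 0 columns named a sample. No test was refitted, so per-library depth and spread are unknown.

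Fold changes were reversed in sign to aged over young. Standard errors fell at the lowest counts (median 0.24 at a baseMean under 2, largest 0.46 of all genes), as shrinkage of fold changes gives; neither the table nor the methods state whether they were shrunk, and shrunken values would understate the differences. Implied group means solve baseMean as the mean of equal groups at the deposited fold change, and 95% intervals are normal ones from the SE. Lengths for values per kb are those of the GENCODE transcript with the longest coding sequence, not the lengths used by the authors. Of all genes, 7243 had a baseMean of 0, 160 a fold change but no p-value, and 7885 a p-value but no adjusted p-value (largest baseMean 7.07). Recomputing the p-values from fold change and SE gave the deposited values of the members within 0.186%, and the adjustment was tested on simulated data. Python 3.11.15 with numpy 2.4.6, pandas 2.3.3, scipy 1.17.1 and matplotlib 3.10.9 was used.

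The members and the lists were chosen with earlier results of these data known, so no p was adjusted over a list alone. The genes to name were all members and, per partner list, up to 4 genes past the threshold with the largest absolute log2 fold change at a baseMean of at least 30, plus the most abundant; of marker lists, the most abundant gene. Other genes named (the remaining laminin chains, Lamc3, Col4a2, Ntn1, the smooth muscle and fibroblast markers, Rpe65 and the overlapping genes) were chosen after their values were seen. Older symbols were matched through RefSeq synonyms. That the 3 mice per group were separate animals rests on the titles. Alternatives were a stricter p threshold, a minimum fold change, other filters on low genes and centring. Results of a few listed genes are not reported here.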

Additional observations from a re-analysis of the deposited data

How the results depend on the processing

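The 7 members that passed were the same genes with no filter on low genes, with a baseMean of at least 30 and under both centrings; at an adjusted p under 0.01 there were 5 (Lamb1, Lamc1, Nid1, Nid2 and Agrn). Where a change of 1 or more on the log2 scale was asked for as well, 1 member (Nid1) and 11 of the 41 partner genes that differed were left. Partner genes that differed numbered between 29 and 48 under the other settings, with 32 lower and 11 higher under centring on genes with a baseMean of at least 100. The median log2 fold change of the members was -0.44, -0.50 and -0.56 as deposited and under centring on genes with a baseMean of at least 100 or 1000, and -0.56 for nidogens and proteoglycans alone and -0.35 for laminins alone. The log2 ratio of their summed implied levels was -0.33, -0.40 and -0.46. The centring on genes with a baseMean of at least 100 gave 1650 higher and 2289 lower calls over all genes. The centring at 1000 was chosen after the data were seen. No paired analysis was possible because single mice have no values in the deposited table. For the same reason leaving out a mouse, another tool and another normalization were not run, so whether 1 mouse carries a result is unknown, and no depth limit can be given.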
